A study of Homo sapiens with 2 samples.

Results

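The genes described here encode SR proteins, hnRNP proteins, a few related RNA-binding proteins and the CLK kinases, and they were followed in MDA-MB-231 cells after exposure to the compound D16. The members are the protein-coding genes named SRSF with a number, TRA2A, TRA2B, HNRNP with any suffix, RBM3, RBM5, RBM10, RBM25, RBM39 or CLK1 to CLK4, without genes named as pseudogenes. This rule took 48 of the 60612 genes of the deposited table, in 4 classes, namely 14 SR genes, 25 hnRNP genes, 5 RBM genes and 4 CLK genes. It used names and gene types only and no expression value.

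RNA was sequenced from MDA-MB-231, an established human triple-negative breast cancer line, in 1 control culture and 1 treated culture. The control cells grew in normal medium, with no vehicle named in the labels, and the treated cells received D16, which the labels call a chalcone, at 24 µM for 48 h. Both were kept in RPMI-1640 with fetal bovine serum, penicillin and streptomycin. Each group held 1 library, so no difference below has a replicate check and none has a p-value.

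SR proteins carry an RNA recognition domain and a tail rich in arginine and serine, bind exonic enhancers and recruit the spliceosome to nearby splice sites. The hnRNP proteins coat nascent transcripts and often oppose SR proteins, so that the balance of the SR and hnRNP classes shapes the choice among competing splice sites. CLK kinases phosphorylate the arginine-serine tails in the nucleus and release SR proteins from nuclear speckles. Many genes of these families limit their own level through an exon that, when spliced in, sends the transcript to nonsense-mediated decay. The files used here give levels per gene, so they show the amount of each splicing factor's RNA and no isoform and no splicing event.

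The depth was alike, with 72108404 counts over all genes for control cells and 73303902 for D16 cells. The line's markers were mostly those of its name, with vimentin (VIM) at 502 FPKM in the control and 259 in the D16 library, CD44 at 25.6 in both, estrogen receptor ESR1 at or below 0.019 and progesterone receptor PGR at 0. The receptor gene ERBB2, or HER2, was detected at 5.38 and 5.72 FPKM, and EGFR at 25.9 and 20.5 FPKM. Summed levels of 7 blood cell markers were 1.11 and 0.451 FPKM, with CD3E, HBA1, HBB and MS4A1 at 0 in both libraries. Summed levels of 7 fibroblast markers were 6.49 and 5.24 FPKM. In such bulk RNA, fewer cells carrying a transcript and less of it per cell cannot be told apart.

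Of the 48 members, 43 had a mean of at least 1 FPKM (fragments scaled to the length of the gene model and the size of the library) and are called measured. The members below that level were SRSF12, a relative of SRSF10, and HNRNPCL1, HNRNPCL2, HNRNPCL3 and HNRNPCL4, which resemble HNRNPC. Of these 5 genes, 4 were at 0 in both libraries and HNRNPCL4 was at 0.0090 FPKM in the control and 0 in the D16 library. The measured members rested on 346 to 23395 read pairs each in the control and 348 to 20634 in the D16 library. Together the members added up to 1547 FPKM in the control and 1489 FPKM in the D16 library, a ratio of 0.962, which was 0.460% and 0.502% of all FPKM in the respective library.

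Differences between the libraries are given as log2((D16 FPKM + 1)/(control FPKM + 1)), a scale that understates the change of low genes, and ratios are of FPKM without the added 1. No measured member was 2-fold higher or 2-fold lower in the D16 library, against 3.63% and 3.97% of the 11830 genes with the same minimum level. At 1.5-fold, 0 members were higher, against 13.2% of all tested genes, and 1 member, SRSF1, was lower, against 11.0%. In all, 42 of the 43 members (97.7%) lay within 1.5-fold and 31 (72.1%) within 1.2-fold, where 75.8% and 41.6% of all tested genes lay. The share within 1.5-fold among the 6514 genes that averaged 5 FPKM or more was 75.3%.

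The median log2 difference over the members was -0.03, beside 0.08 over all tested genes, and it lay between -0.18 and 0.13 when the libraries were scaled in other ways. Rescaling to equal FPKM sums moved the median of all genes from 0.08 to 0.23, and centring on genes of 5 FPKM or more moved it to -0.07. Relative to the median of all tested genes under each scaling, 16 members lay above it and 27 below it with FPKM as deposited, and 15 or 16 lay above it in each of the other 4 scalings tried. A scaling moves members and that median by about the same amount, so this count could hardly change and is no further check. With the minimum raised to 5 FPKM, 9 members lay above the median of those genes and 32 below it.

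**Figure D1:**
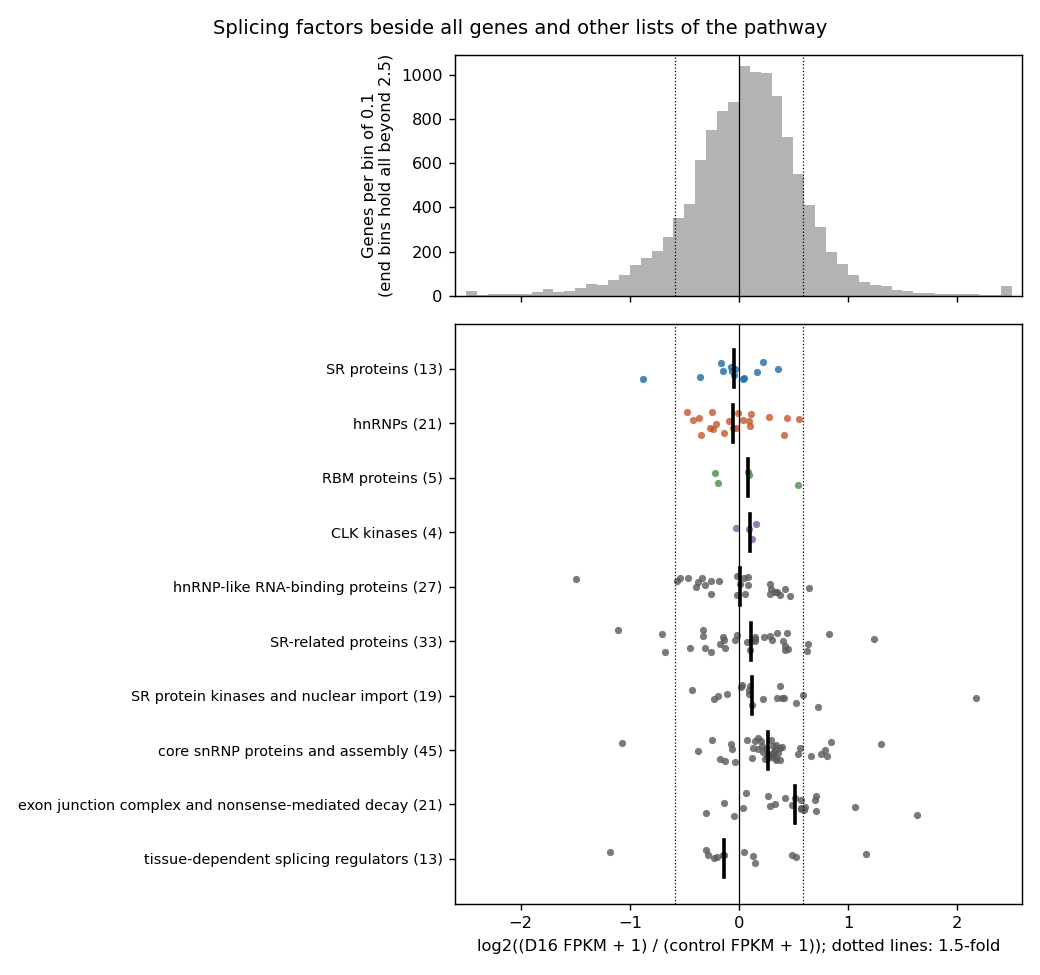
Log2 differences between the D16 and control libraries of all 11830 tested genes (histogram, counts of genes per bin of 0.1 on the vertical axis, the end bins holding all genes beyond 2.5) and, on the lower axes, of each member by class and of 6 other lists of the pathway (1 point a gene, a bar at each median, dotted lines at 1.5-fold). Member points lie between -0.88 and 0.55, and SRSF1 is the member outside the dotted lines, while genes of the other lists lie outside them on both sides.

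Counting error was smaller than most of these differences. The 95% exact interval of the FPKM ratio, which covers counting error only, excluded 1 for 33 of the 43 members, 16 above and 17 below. The same held for 75.2% of all tested genes, 43.7% above and 31.5% below, and for 82.6% of the 7791 genes with at least as many control read pairs as the least covered member, 47.3% above and 35.3% below. Whether differences of this size recur between cultures was not measured. Across 5 scalings of the libraries, 9 members were higher in the D16 library in each, 12 were lower in each, and the other 22 changed sign. Of all tested genes 43.8% were higher in each, 32.4% lower in each, and 23.8% changed sign, and since a scaling moves all genes by about the same amount, those that changed sign are the ones near 0. The 9 higher in each were SRSF9, SRSF11, TRA2A, HNRNPAB, HNRNPL, HNRNPLL, HNRNPM, RBM10 and CLK2. No minimum size was set, and the lowest log2 difference was 0.009 for CLK2 and 0.02 for SRSF9. The 12 lower in each were SRSF1, SRSF6, HNRNPA1, HNRNPA1L2, HNRNPA2B1, HNRNPD, HNRNPDL, HNRNPF, HNRNPK, HNRNPUL1, RBM3 and RBM5. Of these, RBM3 came as near to 0 as -0.013 and HNRNPK as -0.033. Members this near 0 in a scaling are not set apart from those that changed sign.

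**Figure D2:**
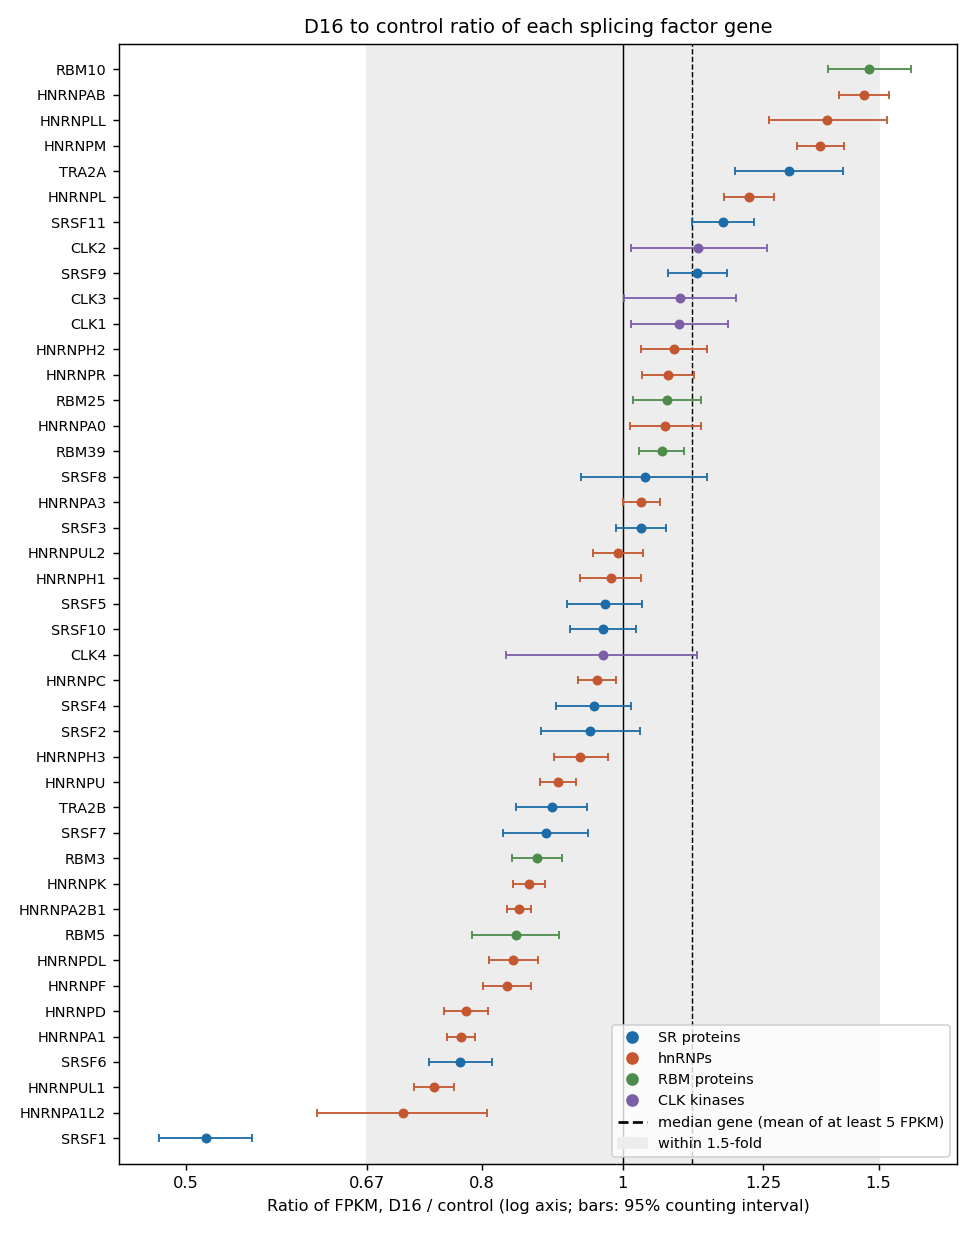
Ratio of FPKM in the D16 library to FPKM in the control library for the 43 measured members, coloured by class, on a log axis; points are ratios, bars are 95% exact intervals of counting error, the shaded band is within 1.5-fold and the dashed line is the median ratio (1.12) of genes that averaged 5 FPKM or more. SRSF1 lies lowest at 0.516, and RBM10 (1.48) and HNRNPAB (1.47) lie highest.

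SRSF1, the founding SR protein and one reported to act as a proto-oncogene in breast tissue, stood lowest. Its level was 16.8 FPKM in the control and 8.65 FPKM in the D16 library, from 2047 and 1099 read pairs. The D16 library thus held 1.94-fold less SRSF1 RNA (95% counting interval 1.80 to 2.09), a log2 difference of -0.88 that ranged from -1.03 to -0.71 over the scalings. The table places SRSF1 (ENSG00000136450) at chr17:58000919-58007261 on the minus strand. A same-strand gene model without a symbol of its own, ENSG00000266086, overlaps it, and that model had 173 counts in the control and 372 in the D16 library, 2.11% of SRSF1's control counts. In GENCODE 29, 53.8% of the 150-base stretches of SRSF1's longest coding transcript also occur in a transcript of another gene. The merged exons of SRSF1 there span 3340 bases, while the deposited values imply 5781, so the deposited model may differ. With the counts of SRSF1 and the overlapping model summed, the ratio was 0.548, so SRSF1 remained the lowest member.

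SRSF9, the closest relative of SRSF1, was the most abundant SR member per gene model. Its level was 41.8 FPKM in the control and 47.1 FPKM in the D16 library, a ratio of 1.13 (1.07 to 1.18). SRSF1 and SRSF9 therefore lay on opposite sides of 1 with FPKM as deposited. After centring on genes of 5 FPKM or more, SRSF9 was about even, with a log2 difference of 0.02, beside -1.03 for SRSF1. Of the FPKM summed over the pair, 58.6 in the control and 55.8 in the D16 library, SRSF1 made up 28.6% in the control and 15.5% in the D16 library.

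The promoter sequences of SRSF1 and SRSF9 are shown because this related pair differed in direction with FPKM as deposited. That of HNRNPAB is shown because it had the highest log2 difference of all members. Each is the window of 300 bases around the gene's start, most of it upstream, that RefSeq gives on GRCh38.p14, printed 5′ to 3′ on the gene's strand, at chr17:58007197-58007496 (minus) for SRSF1, chr12:120469699-120469998 (minus) for SRSF9 and chr5:178204283-178204582 (plus) for HNRNPAB. Capitals mark the motifs searched on both strands, the E-box CACGTG, the CCAAT box CCAAT, the GC box GGGCGG and the core of the cyclic AMP response element TGACGT.
SRSF1: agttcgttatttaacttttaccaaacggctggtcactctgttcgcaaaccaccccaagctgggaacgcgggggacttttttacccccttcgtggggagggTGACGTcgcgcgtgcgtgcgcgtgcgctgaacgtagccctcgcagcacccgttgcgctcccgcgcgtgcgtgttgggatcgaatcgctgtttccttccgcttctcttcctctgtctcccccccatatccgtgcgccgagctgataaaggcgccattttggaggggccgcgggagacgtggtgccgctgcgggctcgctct
SRSF9: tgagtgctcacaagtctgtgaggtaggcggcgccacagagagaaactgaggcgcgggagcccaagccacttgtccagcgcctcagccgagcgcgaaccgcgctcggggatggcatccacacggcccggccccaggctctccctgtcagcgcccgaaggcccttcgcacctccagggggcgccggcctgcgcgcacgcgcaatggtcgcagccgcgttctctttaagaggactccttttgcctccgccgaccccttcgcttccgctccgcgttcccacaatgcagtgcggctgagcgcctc
HNRNPAB: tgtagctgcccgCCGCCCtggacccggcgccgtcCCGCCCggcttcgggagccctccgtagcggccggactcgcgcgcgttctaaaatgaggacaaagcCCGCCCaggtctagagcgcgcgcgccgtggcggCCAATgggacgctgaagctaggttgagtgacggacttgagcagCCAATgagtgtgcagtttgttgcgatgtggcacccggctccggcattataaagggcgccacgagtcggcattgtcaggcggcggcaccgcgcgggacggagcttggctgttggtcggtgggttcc
The SRSF1 window holds 1 TGACGT, the SRSF9 window holds none of the 4 motifs, and the HNRNPAB window holds 2 CCAAT boxes and 3 GC boxes, the latter read as CCGCCC on the strand shown. Promoters were found for 39 of the 43 measured members. CCAAT occurred in 20 of the 39 (51.3%), against 34.6% of 35116 RefSeq promoters of the same length. The GC box occurred in 26 (66.7%), against 45%, the E-box in 9 (23.1%), against 7.26%, and TGACGT in 8 (20.5%), against 7.98%. The 39 are measured genes with 1 promoter each, while the 35116 promoters were limited neither to measured genes nor to 1 per gene. The shares thus compare unlike sets and cannot show a trait of these families. These are matches of letters in a window and say nothing of binding.

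Over the 13 measured SR genes the median log2 difference was -0.04, with 5 above 0 and 8 below, and the median was 0.12 when the libraries were rescaled to equal sums. SRSF6, which regulates an exon of the tau gene MAPT, was lower in the D16 library, at 34.5 and then 26.7 FPKM, a ratio of 0.773 (0.736 to 0.812). Its structural relatives SRSF4 and SRSF5 were close to even. SRSF4 was at 12.1 and 11.5 FPKM in the control and D16 libraries (ratio 0.955, 0.900 to 1.01), and SRSF5 at 19.5 and 19.0 FPKM (0.972, 0.915 to 1.03). The summed level of SRSF4, SRSF5 and SRSF6 was 66.1 FPKM in the control and 57.2 FPKM in the D16 library, with SRSF6 at 52.2% and 46.7% of it.

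The TRA2 genes, whose products bind GAA-rich enhancers, lay apart. TRA2A had the highest log2 difference among SR members, 0.36, with 12.5 FPKM in the control and 16.2 FPKM in the D16 library, a ratio of 1.3 (1.19 to 1.42). TRA2B was at 9.41 FPKM in the control and 8.40 FPKM in the D16 library, a ratio of 0.893 (0.845 to 0.944) that turned above 1 after rescaling to equal sums. TRA2A made up 57.0% of the pair's FPKM in the control and 65.9% in the D16 library, as the plot of shares within related genes shows. These shares depend on the gene length behind FPKM. TRA2B had more read pairs in both libraries, 2602 and 2417 against 928 and 1256 for TRA2A.

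SRSF3, the smallest SR protein, and SRSF7 both serve as adaptors for mRNA export. SRSF3 was at 31.6 and 32.5 FPKM (ratio 1.03, 0.989 to 1.07) and SRSF7 at 21.2 and 18.8 FPKM (0.885, 0.828 to 0.947), control first. SRSF2, a component of nuclear speckles that binds both G- and C-rich enhancers, was at 20.02 and 19.02 FPKM, and SRSF8, which resembles it, at 8.95 and 9.27 FPKM. The intervals of SRSF2 and SRSF8 both included 1. SRSF10, which turns into a splicing repressor when dephosphorylated during heat shock or mitosis, was at 11.2 and 10.9 FPKM with an interval of 0.919 to 1.02. SRSF11, a protein of nuclear speckles, was higher in the D16 library, at 16.3 and then 19.1 FPKM, a ratio of 1.17 (1.12 to 1.23).

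Over the 21 measured hnRNP genes the median log2 difference was -0.06, with 8 above 0 and 13 below, and it was 0.12 with libraries rescaled to equal sums. No measured hnRNP gene was 1.5-fold apart with FPKM as deposited. The class held the most abundant members. HNRNPA1, which opposes SRSF1 in the choice of splice sites and favours exon skipping, led by FPKM in the control with 162 FPKM and stood at 125 FPKM in the D16 library. Its ratio was 0.773 (0.756 to 0.791). The 75 genes named as HNRNPA1 pseudogenes held 9.02% as many control counts as HNRNPA1 itself, and 22.2% of the 150-base stretches of its longest coding transcript occur in other genes. Summed with them, its ratio was 0.784.

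The other A-type genes did not all share that direction. HNRNPA2B1, known for sorting small RNAs and for N6-methyladenosine-dependent processing, was at 119.5 and 101 FPKM (ratio 0.848, 0.832 to 0.864). HNRNPA1L2, an intronless copy related to HNRNPA1, had the lowest log2 difference of the class, -0.47, with 17.9 FPKM in the control and 12.6 FPKM in the D16 library (ratio 0.705, 0.616 to 0.807). Reads of HNRNPA1L2 and HNRNPA1 may be exchanged, since 17.7% of its 150-base stretches occur in other genes. HNRNPA3 was at 67.5 and 69.5 FPKM (1.03, 0.9999 to 1.06) and HNRNPA0, which binds AU-rich elements, at 12.6 and 13.5 FPKM (1.07, 1.01 to 1.13). The summed level of HNRNPA0, HNRNPA1, HNRNPA2B1 and HNRNPA3 was 361 FPKM in the control and 309 FPKM in the D16 library, a ratio of 0.856.

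HNRNPAB had the highest log2 difference of all members, 0.55, and its relatives differed from it. Its level was 93.5 FPKM in the control and 137 FPKM in the D16 library, a ratio of 1.47 (1.41 to 1.53), which made it the most abundant member by FPKM after D16. HNRNPD, or AUF1, which binds AU-rich elements and promotes mRNA decay, was at 49.8 and 38.8 FPKM (ratio 0.780, 0.754 to 0.807). Its neighbour on chromosome 4, HNRNPDL, was at 48.0 and 40.4 FPKM (0.841, 0.809 to 0.874). HNRNPAB was higher in the D16 library, and HNRNPD and HNRNPDL lower, in every scaling tried. HNRNPAB thus made up 48.9% of the FPKM of these 3 genes in the control and 63.4% in the D16 library, while their sum was 191 and 216 FPKM.

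**Figure D3:**
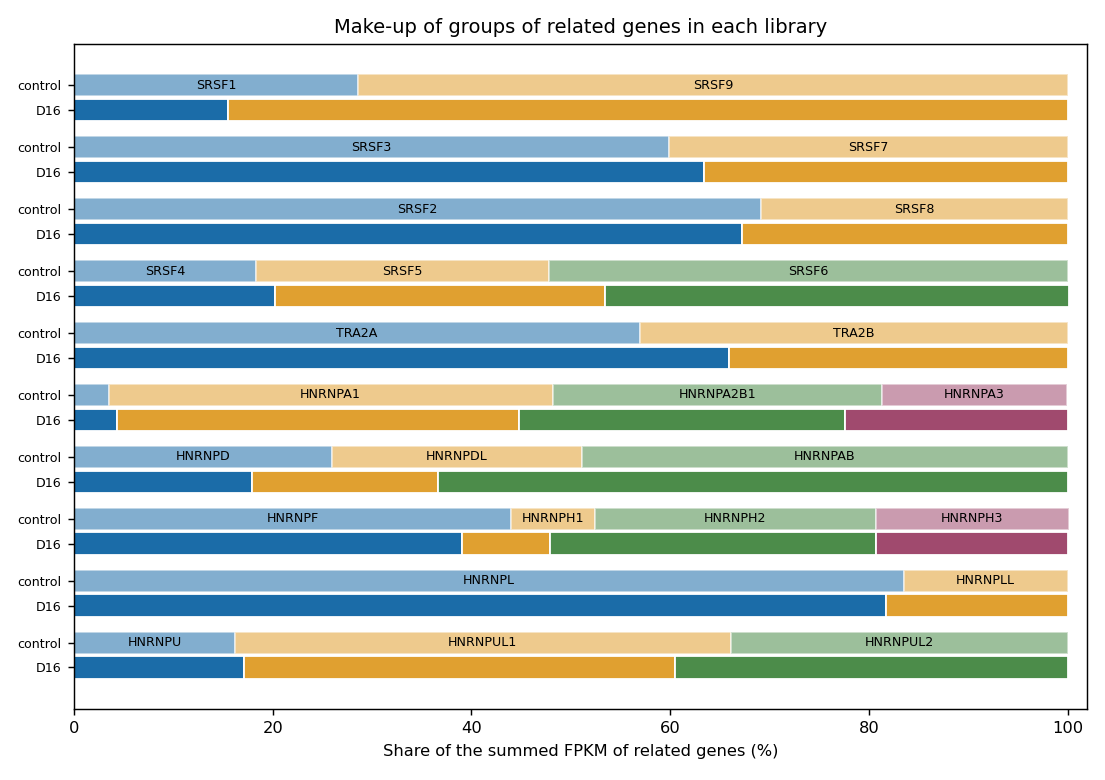
Share of summed FPKM, in percent, held by each gene within 10 groups of related members in the control and D16 libraries, as stacked bars that each reach 100%, pale for the control and dark for D16. HNRNPA0, at 3.49% and 4.36% of its group, is drawn without a label. The share of SRSF1 is 28.6% against 15.5%, and that of HNRNPAB 48.9% against 63.4%. The shares within a library depend on the gene length behind FPKM.

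The L-type genes and HNRNPM, whose products often repress exons, were higher in the D16 library in every scaling tried. HNRNPL, which binds CA-rich repeats, was at 30.6 and 37.4 FPKM, a ratio of 1.22 (1.17 to 1.27). HNRNPLL, known for exon skipping in CD45 in T cells, was at 6.06 and 8.38 FPKM, a ratio of 1.38 (1.26 to 1.52). HNRNPM, linked to splicing in mesenchymal breast cancer cells, was at 39.2 and 53.6 FPKM, a ratio of 1.37 (1.32 to 1.42) and the third-highest log2 difference of all members. Gene models that overlap HNRNPL on its strand had 729 counts in the control and 28 in the D16 library, 4.13% of HNRNPL's control counts, and the ratio with them summed was 1.17.

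HNRNPF and the H genes bind runs of G. HNRNPF was at 86.4 and 71.9 FPKM (ratio 0.832, 0.802 to 0.864), HNRNPH1 at 16.5 and 16.2 (0.981, 0.935 to 1.03), HNRNPH2 at 55.6 and 60.2 (1.08, 1.03 to 1.14) and HNRNPH3 at 38.0 and 35.6 (0.935, 0.896 to 0.976). Within this group HNRNPF was the one lower in every scaling, and the others changed sign. HNRNPK, which binds C-rich stretches, was at 117 and 101 FPKM (0.861, 0.840 to 0.884). HNRNPC, which binds U-tracts and keeps cryptic exons of Alu elements out of transcripts, was at 53.9 and 51.7 FPKM (0.960, 0.931 to 0.989). HNRNPR, which travels with mRNA in neurites, was at 23.4 and 25.2 FPKM (1.07, 1.03 to 1.12).

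Of the U-type genes, 1 of 3 stood apart. HNRNPUL1, which takes part in the response to DNA damage, was at 63.2 and 46.9 FPKM, a ratio of 0.741 (0.718 to 0.765). HNRNPU, a scaffold protein of chromatin, was at 20.5 and 18.5 FPKM (0.903, 0.877 to 0.929), and HNRNPUL2 at 43.0 and 42.6 FPKM (0.993, 0.954 to 1.03). HNRNPUL2 shares 44.1% of the 150-base stretches of its longest coding transcript with the read-through model HNRNPUL2-BSCL2, so its level is less certain.

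**Figure D4:**
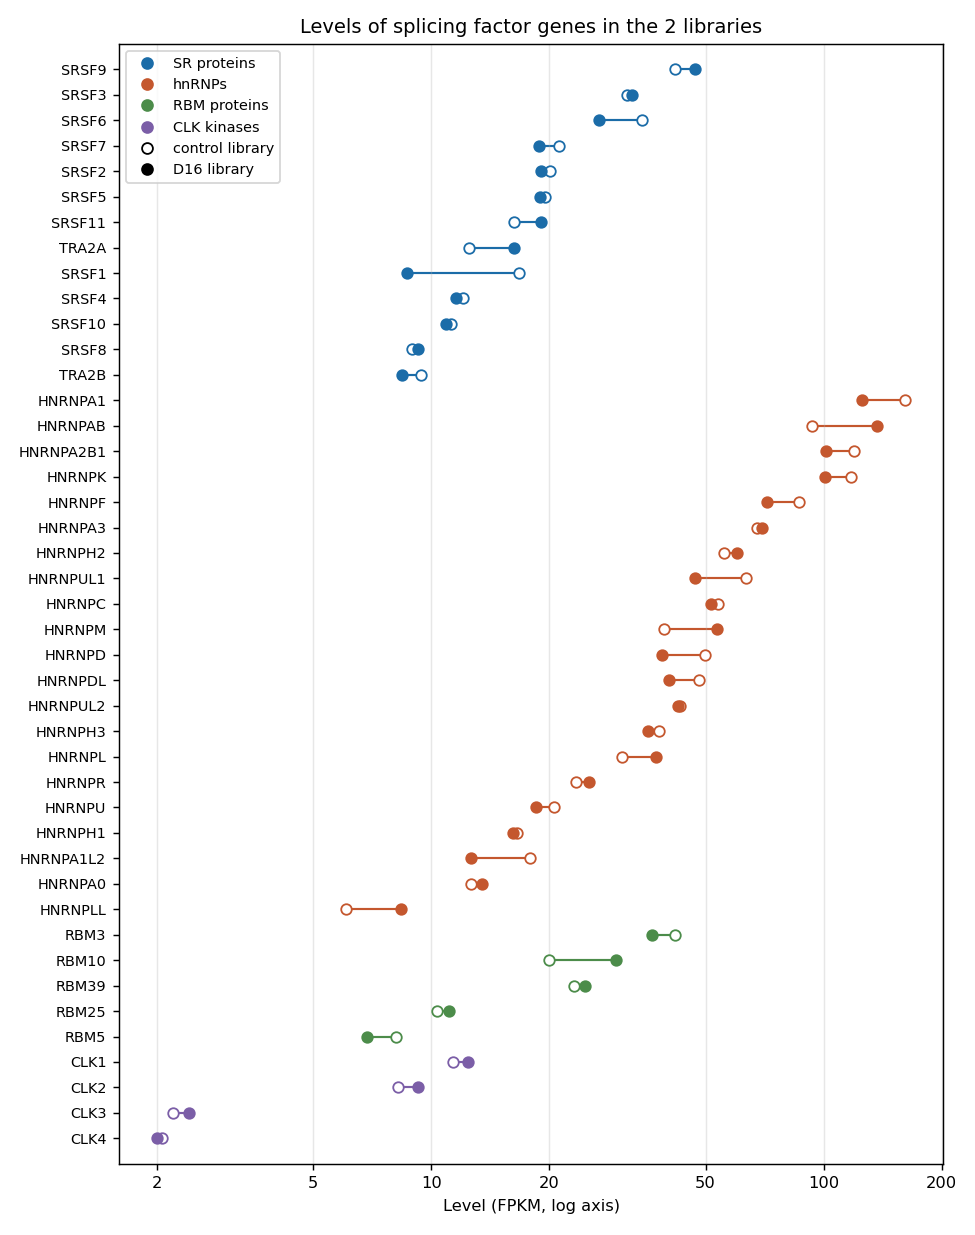
FPKM of each of the 43 measured members in the control and D16 libraries, by class, on a log axis, with an open point for the control and a filled point for D16. The hnRNP genes span 6.06 to 162 FPKM in the control, the SR genes 8.95 to 41.8 FPKM, and CLK3 and CLK4 lie lowest near 2 FPKM.

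The RBM genes had a median log2 difference of 0.09, with 3 above 0 and 2 below, and of -0.06 after centring on genes of 5 FPKM or more. RBM10, which favours exon skipping in NUMB and other transcripts, was highest at 19.9 FPKM in the control and 29.5 FPKM in the D16 library, a ratio of 1.48 (1.38 to 1.58). RBM3, a protein induced by cold, was the most abundant by FPKM, at 41.8 and 36.5 FPKM (0.873, 0.839 to 0.909). RBM39, a relative of the splicing factor U2AF2 and the target of aryl sulfonamide degraders, was at 23.1 and 24.6 FPKM (1.06, 1.03 to 1.1), and RBM25, which regulates splicing of BCL2L1, at 10.3 and 11.1 FPKM (1.07, 1.02 to 1.13).

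RBM5, a relative of RBM10 that regulates splicing of apoptosis genes, was at 8.12 FPKM in the control and 6.86 FPKM in the D16 library, a ratio of 0.844 (0.788 to 0.904). It was lower in every scaling tried. RBM6 overlaps RBM5 on the same strand and had 5967 counts in the control and 8933 in the D16 library, the former being 83.8% of RBM5's control counts. With the 2 genes summed, the ratio was 1.12, a sum that includes RBM6's own ratio of 1.44. In GENCODE 29, 10.1% of the 150-base stretches of RBM5's longest coding transcript also occur in RBM6. Whether reads were exchanged between these genes was not tested.

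The CLK kinases lay within 1.2-fold, all 4 of them. Their median log2 difference was 0.11, with 3 above 0 and 1 below, and -0.04 after centring on genes of 5 FPKM or more. CLK1, the most abundant by FPKM, was at 11.3 and 12.4 FPKM (ratio 1.09, 1.01 to 1.18). CLK2 had the highest log2 difference, 0.16, with 8.20 and 9.25 FPKM (1.13, 1.01 to 1.26). CLK3 was at 2.20 and 2.41 FPKM (1.09, 1.003 to 1.2), and CLK4 had the lowest log2 difference, -0.03, with 2.06 and 1.99 FPKM (0.969, 0.831 to 1.13).

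The order of the levels within a library depended on how gene length was taken. By FPKM as deposited HNRNPA1 came first in the control, followed by HNRNPA2B1, and by read pairs per kilobase of the longest coding transcript HNRNPA2B1 came first, with 6385 read pairs per kilobase, followed by HNRNPK with 4287. SRSF9 was the 13th by FPKM and the 4th by the latter measure. HNRNPU was the 23rd by FPKM and the 16th by the latter measure. Shares within related genes depend on length too. By the latter measure TRA2B stood above TRA2A in the control, 881 against 416, and SRSF4 above SRSF6, 941 against 825. HNRNPD, at 2420, stood above HNRNPAB, at 2329, in the control but not in the D16 library. Over 8897 genes the deposited FPKM followed counts divided by the merged length of all exons in GENCODE 29. Of these genes, 91.2% were within 10% of the common ratio, so genes with long retained-intron models have low FPKM for their reads. SRSF1 and RBM3 lay outside it, with implied lengths of 5781 and 5825 bases against 3340 and 3731. The ratios between libraries do not carry gene length. Between libraries, 22 of the 43 members kept their place by FPKM to within 1 rank, and the largest shift was 10 places.

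Some types of gene model, which the names did not fix, were listed for most members but not for all. A model of the type nonsense-mediated decay was listed for 32 of the 43 measured members (74.4%). It was listed for 44.8% of 10342 measured genes with a protein-coding model. By class, these were 13 of the 13 SR, 13 of 21 hnRNP, 3 of 5 RBM and 3 of 4 CLK genes. A retained-intron model was listed for 31 members (72.1%) and for 59.2% of those 10342 genes. The number of models per gene was not taken into account. The median log2 difference was -0.04 over members with a nonsense-mediated decay model and 0.04 over those without one, beside 0.09 and 0.10 over all such genes. It was -0.03 and -0.02 over members with and without a retained-intron model, beside 0.07 and 0.12 over all such genes. Levels of single transcripts were not analysed here.

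The exon junction complex and the nonsense-mediated decay factors, which take part in removing such transcripts, were mostly higher in the D16 library. All 21 genes of that list were measured, 18 were above 0, 7 were at least 1.5-fold higher and 0 were 1.5-fold lower, with a median log2 difference of 0.51 that stayed between 0.36 and 0.68 over the scalings and pseudocounts. Of all tested genes, 56.9% were above 0, 13.2% were 1.5-fold higher and 11.0% were 1.5-fold lower, and these shares stand beside the counts of the lists that follow as well. UPF3B, which links the exon junction complex to decay, was at 10.6 FPKM in the control and 34.9 FPKM in the D16 library, a ratio of 3.31 (3.04 to 3.61). RBM8A, a core subunit of the exon junction complex, was at 14.7 and 31.9 FPKM (2.17, 2.05 to 2.30), UPF1, the decay helicase, at 10.0 and 17.1 FPKM (1.7, 1.6 to 1.8) and NCBP1, of the cap-binding complex, at 13.7 and 23.1 FPKM (1.68, 1.58 to 1.79). The RNAs listed as signs of RNA quality also moved in this comparison. MALAT1 was at 11.2 and 16.6 FPKM (ratio 1.48, 1.40 to 1.56) and NEAT1 at 1.051 and 1.45 (1.38, 1.23 to 1.54). RN7SK was at 0.486 and 2.52 (5.17, 1.43 to 17.6), RN7SL1 at 8.78 and 3.72 (0.423, 0.244 to 0.676) and RPPH1 at 2.09 and 0.668 (0.320, 0.091 to 0.928). The intervals of RN7SK and RPPH1 were wide. The summed level of these RNAs was 23.6 and 24.97 FPKM, and their part in the result was not tested.

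Most genes of the core spliceosome lay above 0, few of them 1.5-fold apart. Of 45 measured genes for snRNP proteins and their assembly, 37 lay above 0, 6 were 1.5-fold higher and 1 was 1.5-fold lower, with a median log2 difference of 0.27 that stayed between 0.12 and 0.45 over the scalings. These shares were 82.2%, 13.3% and 2.22%, so the share 1.5-fold higher was that of all tested genes. SNRPD2, an Sm core protein, was at 42.2 and 106 FPKM (ratio 2.505, 2.36 to 2.66), and SNRPA, of the U1 particle, went the other way at 20.6 and 9.29 FPKM (0.450, 0.404 to 0.503). SNRPA1, of the U2 particle, was at 10.9 and 20.4 FPKM, and PRPF4, of the tri-snRNP, at 17.0 and 30.5 FPKM.

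Another list held SR protein kinases, other nuclear kinases, phosphatases and import factors. Whether each of its kinases acts on SR proteins was not examined. Among its 19 measured genes, 15 lay above 0, 3 were 1.5-fold higher and 0 lower. The median log2 difference was 0.12, and -0.03 after centring on genes of 5 FPKM or more. The share 1.5-fold higher, 15.8%, was near that of all tested genes. HIPK2, a nuclear kinase of the stress response, was at 0.746 FPKM in the control and 6.86 FPKM in the D16 library, a ratio of 9.19 (8.07 to 10.5). TNPO3, the import receptor of phosphorylated SR proteins, was at 18.6 and 27.2 FPKM (1.46, 1.37 to 1.55). TNPO1, which imports HNRNPA1 through its nuclear localisation signal, was at 14.0 and 23.8 FPKM (1.7, 1.63 to 1.77), and CDK12 at 4.89 and 7.86 FPKM (1.61, 1.5 to 1.72). The kinases that phosphorylate SR proteins in the cytoplasm did not share a side, with SRPK1 at 54.3 and 50.2 FPKM and SRPK2 at 4.77 and 6.68 FPKM.

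Of 33 measured SR-related genes, 4 were 1.5-fold higher and 3 lower, with a median log2 difference of 0.11 that was -0.04 after the same centring. Both shares, 12.1% and 9.09%, were near those of all tested genes. SCAF4, which guards against early transcript termination, was at 5.22 and 13.6 FPKM (ratio 2.61, 2.39 to 2.86). SRRM2, a scaffold of nuclear speckles, was at 13.2 and 5.59 FPKM (0.422, 0.398 to 0.449). PRPF38A, of the spliceosome before its activation, was at 7.47 and 14.0 FPKM, and the cyclin CCNL2 at 12.3 and 7.14 FPKM.

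The 27 measured hnRNP-like genes had 1 member 1.5-fold higher and 1 lower, with a median log2 difference of 0.01 that was -0.14 after that centring. FUBP1, which binds the far upstream element of MYC and also acts in splicing, was at 11.7 and 3.53 FPKM (ratio 0.300, 0.274 to 0.330), and PSPC1, of paraspeckles, at 11.5 and 18.5 FPKM (1.61, 1.49 to 1.73). SYNCRIP, or hnRNP Q, was at 26.7 and 17.7 FPKM and RBMX, or hnRNP G, at 20.9 and 14.1 FPKM. MATR3 had more than one identifier in the table and was left out.

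Of 13 measured tissue-dependent regulators, 1 was 1.5-fold higher and 1 lower, with a median log2 difference of -0.14 that turned to 0.03 with libraries rescaled to equal sums. CELF2, which binds GU-rich RNA, was at 2.10 and 0.367 FPKM (ratio 0.175, 0.139 to 0.221), and RBM24, a regulator of muscle splicing, at 2.10 and 5.94 FPKM (2.83, 2.35 to 3.42). RBM38, a target gene of p53, was at 4.73 and 7.24 FPKM, and RBM6, which overlaps RBM5, at 9.66 and 13.9 FPKM.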

How the data were processed

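Expression was read from the deposited gene table of 2 libraries, 1 control and 1 treated with D16. Per the file headers, the authors deposited FPKM for each gene and library; values at or below 0.0001 stood for 0. The deposited estimated counts, per the file headers, are whole numbers; of 13018 genes that reached 100 counts in both libraries, 98.4% gave the same ratio as FPKM within 1% after a common factor of 0.962. Low counts pile up at multiples of 4 (in the control, 473 genes held 3, 1308 held 4 and 254 held 5), so they were divided by 4 to stand for read pairs, a reading made from the values. StringTie 1.3.4d, HISAT2 2.0.4 and cutadapt 1.9 are listed, per the submitters' processing notes, without their roles. A genome build was not given in the sources used here. Coordinates are those of the deposited table; all 48 members were found by identifier in GENCODE 29 on GRCh38, 21 with the same start and end. A deposited list of top genes holds 8 columns of per-sample values that were not used.

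Differences were log2((D16 FPKM + 1)/(control FPKM + 1)) over genes that averaged 1 FPKM or more. Intervals of FPKM ratios were derived from the binomial share of D16 read pairs at 95% confidence (exact, by Clopper and Pearson), with the factor of 0.962; reads are not independent molecules, so they cover counting error only. All measured members are named. Of each other list, up to 4 genes with the largest absolute difference are named; SRPK1 and SRPK2 lie outside that rule, chosen once their values had been seen. The members, the lists and the groups of related genes were chosen with earlier results of these data known. Counts were scaled with TMM in edgeR 4.0.16 (R 4.3.3) as an alternative, after rounding to whole numbers. Promoters came from RefSeq on GRCh38.p14, and no protein sequence was used here; 1 listed blood cell marker is not reported here. Python 3.11.15, pandas 2.3.3, numpy 2.4.6, scipy 1.17.1 and matplotlib 3.10.9 were used, and the steps were tested on simulated data.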

Additional observations from a re-analysis of the deposited data

How the results depend on the processing

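With 1 library a group, no replicate could be left out. No paired analysis was possible because each group held 1 library and the labels give no replicate numbers. With libraries rescaled to equal sums of FPKM, 3 of 43 members (HNRNPAB, HNRNPM and RBM10) were 1.5-fold higher, against 21.4% of all tested genes. The class medians were then 0.125 for SR, 0.121 for hnRNP and 0.259 for RBM genes. Centred on the typical difference of genes at 5 FPKM or more, 1 member (SRSF1, at -1.03) was 2-fold lower. With that centring, 2 of 43 members (SRSF1 and HNRNPA1L2) were 1.5-fold lower, against 15.6% of all tested genes. The class medians were then -0.189 for SR, -0.205 for hnRNP and -0.062 for RBM genes. With equal sums that leave out mitochondrial genes and the 20 most abundant genes, a scaling chosen after seeing the data, the hnRNP median was -0.124; the cause was not tested. Pseudocounts of 0.1 and 5 FPKM, edgeR's TMM and sums with pseudogenes or with overlapping genes (the latter also chosen after seeing the data) left these counts at 0, 0, 0 and 1 and moved no class median by more than the spread set for it. Depth limits little here, as the least covered measured member had 346 read pairs in the control; the lack of replicates limits every statement.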

Other observations

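Genes with HNRNP names that the rule leaves out were mostly silent. Pseudogenes of the SRSF and CLK genes are not in this count. Of 124 such genes, largely processed pseudogenes, 76 were at 0 in both libraries and 14 had a mean of at least 1 FPKM. HNRNPCP1, named after its values were seen, was at 0.820 FPKM (54 counts) in the control and 6.41 FPKM (432 counts) in the D16 library, a ratio of 7.82 (95% counting interval 4.24 to 14.0). It lies inside KIAA0586 on the same strand, at chr14:58521223-58521988, and KIAA0586 itself was at 1.74 and 2.24 FPKM. Its parent HNRNPC had a ratio of 0.960. The model ENSG00000268083, which overlaps HNRNPL on its strand and was also named after its values were seen, had 720 counts in control cells and 0 in D16 cells. How much of the reads of either model came from the overlapping gene was not tested.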
